A study of Homo sapiens with 6 samples.

Results

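The S100A genes encode small calcium-binding proteins, and 8 of them, namely S100A2, S100A3, S100A4, S100A6, S100A10, S100A11, S100A13 and S100A16, were examined by symbol among the 57773 genes of the count table. All 8 passed the filter on low counts and belonged to the 15818 genes tested. The cells were U251, a long-established glioblastoma line, cultured in DMEM with 10% fetal bovine serum, at passage 5 to 10, and harvested 12 h after passage. The first group, called PD-L1 here, was 3 dishes (100 mm) of a line stably transduced by lentivirus to overexpress PD-L1, the PD-1 ligand encoded by CD274. The second group, called Vector, was 3 dishes of a line that carried the lentiviral vector alone. The labels describe 1 stable line per construct, so p-values reflect variation among dishes of a line and not among independent transductions. Which promoter drives the PD-L1 construct was not stated in the labels. The comparison asks which transcripts differ when PD-L1 is overexpressed.

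S100 proteins carry a pair of EF-hand motifs, helix-loop-helix folds that bind calcium, and most act as dimers that expose a surface for a target protein when calcium rises. They have no enzymatic activity of their own and work by binding annexins, cytoskeletal proteins or, outside the cell, receptors such as RAGE, encoded by AGER. Most S100A genes sit in 1 cluster on the long arm of chromosome 1, in which S100A3, S100A4, S100A5 and S100A6 are close neighbours. In gliomas several S100 proteins are studied for their part in migration and invasion.

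In brief, 6 of the 8 genes were lower in PD-L1 dishes and 0 were higher, at a false discovery rate (FDR) under 0.05 in edgeR's quasi-likelihood test over all genes. Of all 15818 genes tested, 7.20% were called lower and 1.55% higher by the same rule. The called genes were S100A2, S100A3, S100A6, S100A10, S100A11 and S100A16, with folds between 1.44 and 1.83. S100A4 and S100A13 were not called. In bulk RNA, fewer expressing cells and less RNA per cell cannot be told apart. The median log2 fold change (PD-L1 minus Vector) of the 8 was -0.71, against 0.02 over all genes tested.

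The promoter windows of 4 members are shown because these genes carry the main contrasts: S100A2 is the most abundant member, S100A10 has the smallest FDR, and S100A6 was called while its close neighbour S100A4 was not. Each is the 250 bases before the annotated start, printed 5′ to 3′ from RefSeq on GRCh38.p14, a different build from the hg19 of the counts, and capitals mark matches to the motifs searched.
S100A2, chr1:153565845-153566094, minus strand: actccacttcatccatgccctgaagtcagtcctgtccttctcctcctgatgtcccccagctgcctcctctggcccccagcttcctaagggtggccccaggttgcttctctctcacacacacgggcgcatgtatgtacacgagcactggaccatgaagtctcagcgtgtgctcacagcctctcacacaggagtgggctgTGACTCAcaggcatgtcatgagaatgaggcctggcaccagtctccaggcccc
S100A6, chr1:153535992-153536241, minus strand: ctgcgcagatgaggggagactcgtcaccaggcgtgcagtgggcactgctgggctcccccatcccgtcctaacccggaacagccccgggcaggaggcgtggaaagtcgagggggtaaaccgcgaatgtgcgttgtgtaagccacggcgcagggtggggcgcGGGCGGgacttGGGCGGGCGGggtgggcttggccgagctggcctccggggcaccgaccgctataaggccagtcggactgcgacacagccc
S100A10, chr1:151993860-151994109, minus strand: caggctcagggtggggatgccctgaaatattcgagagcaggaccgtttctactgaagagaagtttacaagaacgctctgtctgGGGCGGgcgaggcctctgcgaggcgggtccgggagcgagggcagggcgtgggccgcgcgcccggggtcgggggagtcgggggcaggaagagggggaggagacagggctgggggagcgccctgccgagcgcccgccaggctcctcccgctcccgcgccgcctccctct
S100A4, chr1:153545807-153546056, minus strand: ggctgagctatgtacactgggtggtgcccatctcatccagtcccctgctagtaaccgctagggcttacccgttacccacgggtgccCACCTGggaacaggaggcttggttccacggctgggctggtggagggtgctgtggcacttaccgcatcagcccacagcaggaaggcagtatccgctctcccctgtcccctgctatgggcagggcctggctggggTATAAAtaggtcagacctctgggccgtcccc

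The motifs were TGANTCA (the AP-1 core), CATTCC (TEAD), GTCTAGAC (the SMAD palindrome), CACCTG (an E-box), GGGCGG (SP1) and TATAAA (the TATA box), searched on both strands with overlapping matches counted. All 8 genes matched the RefSeq table, with 12 windows in all. In the S100A2 window shown, the capitals are TGACTCA, beginning at position -52 from the start. A second S100A2 window, from another annotated start, holds no TGANTCA. The only other member with this motif was S100A3, and 6.6% of 35116 promoter windows of the same length hold it. S100A6 has 3 matches to GGGCGG, at -90, -79 and -75, the last 2 overlapping, and S100A10 has 1 at -167. That motif is found in 42.6% of windows, and in 6 of the 8 members, all but S100A2 and S100A4. S100A13, which was not called, is among the 6. S100A4 has CACCTG at -164 and TATAAA at -31, which are held by 17.5% and 10.7% of windows. CACCTG was also found for the called genes S100A2 (second window, at -18) and S100A16, and TATAAA also for S100A13. The SMAD palindrome was in 0 of the 12 windows and TEAD in 1, that of S100A16. A match describes the letters only.

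Total counts ranged from 15678989 to 22270509 per dish, and 3 counts correspond to 0.138 to 0.185 CPM (read counts over the library size after TMM scaling, which corrects for library composition). CD274, the gene of the construct, had 1309, 1356 and 1234 CPM in PD-L1 dishes 1 to 3, against 1.56, 3.47 and 2.21 CPM in Vector dishes 1 to 3. PD-L1 dish 3 stood apart from PD-L1 dishes 1 and 2, with a chi-square per degree of freedom of 14.5 and 13.6 against them, compared with 2.84 between dishes 1 and 2. The Vector pairs gave 9.15 (dishes 1 and 2), 5.78 (1 and 3) and 4.87 (2 and 3). Over all genes 3512 were called without PD-L1 dish 3, against 1384 with all 6 dishes.

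Levels differed widely between members. Per kilobase of exon (the union of all exons in GENCODE 29), S100A2 stood at 314 ± 80.0 CPM per kb in PD-L1 dishes and 561 ± 86.5 in Vector dishes (mean ± SD, n = 3 each). S100A6 was next, at 162 ± 40.0 CPM per kb in PD-L1 and 279 ± 42.2 in Vector dishes. S100A10, S100A11 and S100A16 lay between 90.1 and 119 CPM per kb in PD-L1 dishes, and between 161 and 172 in Vector dishes. In both groups the dish ranges of these 3 neighbours in the order overlapped. The range of S100A6 also overlapped that of S100A10 in PD-L1 dishes, but stood apart from it in Vector dishes. S100A4 was lower, at 33.1 CPM per kb in PD-L1 and 33.2 in Vector dishes, apart from its neighbours in the order. S100A3 (1.74 CPM per kb in PD-L1 and 3.11 in Vector dishes) and S100A13 (0.65 and 0.84) were the lowest members. The length of S100A13 takes in exon bases shared with other genes (33.5%), so its level and place in the order are uncertain. Among 15436 tested genes with a known length, S100A2 ranked 98 per kb in PD-L1 dishes and 47 in Vector dishes. With the longest transcript as the length, the order of S100A10, S100A11 and S100A16 changed in both groups and that of the other members did not.

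**Figure D1:**
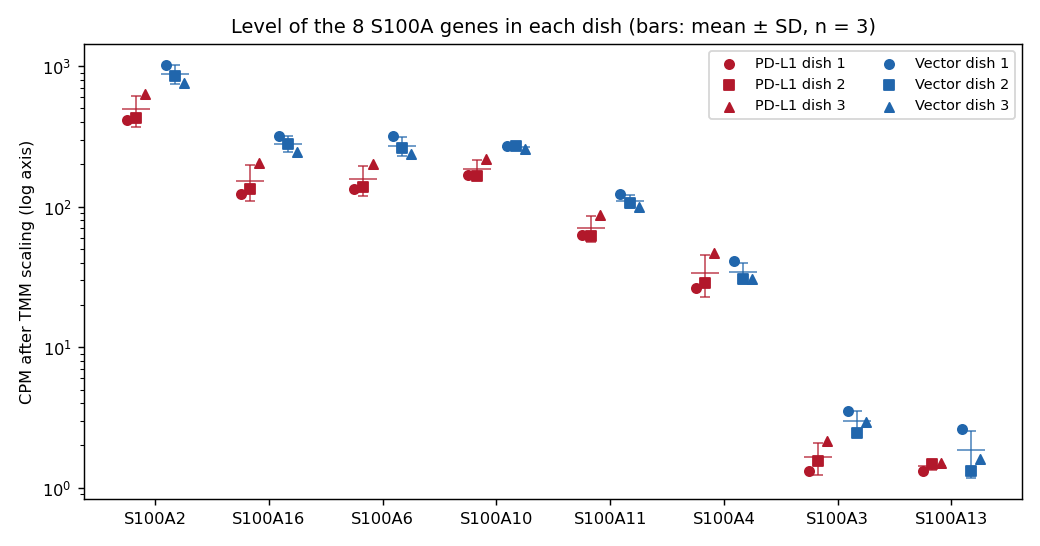
CPM after TMM scaling (log axis) of each S100A gene in the 3 PD-L1 dishes (red, left) and the 3 Vector dishes (blue, right), with bars for the mean ± SD. For S100A2, S100A16, S100A6, S100A10, S100A11 and S100A3 every PD-L1 dish lies under every Vector dish. S100A4 and S100A13 overlap between groups.

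S100A2 encodes a mainly nuclear S100 protein known from basal keratinocytes and described as a target of p53. It had 414, 426 and 637 CPM in PD-L1 dishes 1 to 3, against 1025, 857 and 757 CPM in Vector dishes 1 to 3. The groups did not overlap, with PD-L1 dish 3 nearest to the Vector dishes. S100A2 was 1.79-fold lower in PD-L1 dishes, a log2 fold change of -0.84 ± 0.17 (SE), with an adjusted p of 0.0124 in edgeR's quasi-likelihood test. It was not called without PD-L1 dish 2 (adjusted p = 0.0728), and over 18 alternative fits its adjusted p ranged from 3.03e-08 to 0.0728. Markers of keratinocytes and epithelium, a list of 7 genes, summed to 58.4 to 95.4 CPM in PD-L1 dishes and 148 to 203 CPM in Vector dishes. Most of that sum was KRT14 and KRT5, and 1 of 4 tested genes was lower (7.20% of all genes). Of the list 6 had a read, KRT1 was at 0 in every dish, EPCAM stood under 0.60 CPM and LORICRIN under 0.24 CPM. The basal keratin KRT14 was 2.36-fold lower (adjusted p = 1.77e-04), while KRT5 (adjusted p = 0.746) was not called. CDH1, the epithelial cadherin, averaged 2.05 CPM with PD-L1 and 2.03 CPM with Vector (adjusted p = 0.957). The part of these markers in the S100A2 result was not tested.

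S100A6, or calcyclin, is a growth-associated S100 protein that binds annexin A11 and the calcyclin-binding protein CACYBP. S100A6 had 133, 137 and 202 CPM in PD-L1 dishes, against 316, 260 and 237 CPM in Vector dishes. It was lower in every PD-L1 dish, by 1.72-fold (log2 fold change -0.78 ± 0.17, adjusted p = 0.0197). It was not called without PD-L1 dish 1 or dish 2 (adjusted p = 0.0517 and 0.0938), within a range over 18 fits of 2.62e-11 to 0.0938. S100A16, a widely expressed member, had 122, 134 and 204 CPM in PD-L1 dishes, against 318, 278 and 246 CPM in Vector dishes. These groups did not overlap either, and S100A16 had the largest fold of the 8, being 1.83-fold lower (log2 fold change -0.87 ± 0.19, adjusted p = 0.0253). Without PD-L1 dish 2 the adjusted p of S100A16 was 0.139, the highest of its 18 alternatives, whose lowest was 8.83e-07.

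S100A10, also called p11, does not bind calcium and forms a heterotetramer with annexin A2 that gathers plasminogen and its activators at the cell surface. It had 168, 166 and 218 CPM in PD-L1 dishes, against 272, 269 and 257 CPM in Vector dishes. The Vector dishes were close together (coefficient of variation 2.89%), and all stood above the PD-L1 dishes. S100A10 was 1.44-fold lower (log2 fold change -0.53 ± 0.10), with an adjusted p of 0.00429. S100A11, a partner of annexin A1, had 62.7, 62.4 and 87.5 CPM in PD-L1 dishes, against 122, 107 and 99.4 CPM in Vector dishes. It was 1.55-fold lower, without overlap between groups (log2 fold change -0.63 ± 0.12, adjusted p = 0.00768). S100A10 and S100A11 were the only members called in all 18 alternative fits, with adjusted p up to 0.0300 and 0.0487. The count table holds 7 S100A11 copies (pseudogenes), of which 1 had reads, 2 in all.

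S100A4, known as metastasin, binds nonmuscle myosin IIA and is associated with motility in many tumours. It had 26.6, 28.5 and 46.7 CPM in PD-L1 dishes, against 40.9, 30.7 and 30.7 CPM in Vector dishes. PD-L1 dish 3 was the highest of all 6 dishes and PD-L1 dishes 1 and 2 the lowest, so the groups overlapped. The log2 fold change was -0.0079 ± 0.22 (adjusted p = 0.988), with a 95% interval from -0.50 to 0.49, which spans 0.71-fold to 1.40-fold. Without PD-L1 dish 3 the value was -0.31 with an adjusted p of 0.0686, and over 18 fits the adjusted p ranged from 0.0686 to 0.998. The sign turned to positive with upper-quartile scaling (0.025), with library size only (0.039), and without PD-L1 dish 1, PD-L1 dish 2 or Vector dish 1 (0.10 to 0.14).

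The remaining members were scarce. S100A3, a cysteine-rich protein known from hair cuticle, had 27, 25 and 40 reads in PD-L1 dishes, against 76, 50 and 55 reads in Vector dishes. That is 1.67 ± 0.43 CPM with PD-L1 and 2.97 ± 0.53 CPM in Vector dishes. The groups did not overlap, and S100A3 was 1.78-fold lower (log2 fold change -0.84 ± 0.23, adjusted p = 0.0400). The call ended in 5 of 17 alternative fits, namely with DESeq2 (adjusted p = 0.0513) and on leaving out PD-L1 dish 1, PD-L1 dish 2, Vector dish 1 and Vector dish 3 in turn (0.189, 0.123, 0.197 and 0.0822), within a range from 0.00429 to 0.197. S100A13, which takes part in the release of FGF1 from cells, had 27, 24 and 28 reads in PD-L1 dishes, against 57, 27 and 30 reads in Vector dishes. Vector dish 1 held the most reads and the groups overlapped, at 1.43 ± 0.10 CPM with PD-L1 and 1.85 ± 0.68 CPM in Vector dishes. Its log2 fold change was -0.38 ± 0.28 (adjusted p = 0.433), with a 95% interval from -0.98 to 0.21. It was -0.04 without Vector dish 1 and -0.58 without Vector dish 2. In GENCODE 29, 33.5% of the exon bases of S100A13 are shared with other genes, among them S100A1 on the opposite strand, and the libraries hold no strand information, which leaves reads of these genes inseparable there.

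**Figure D2:**
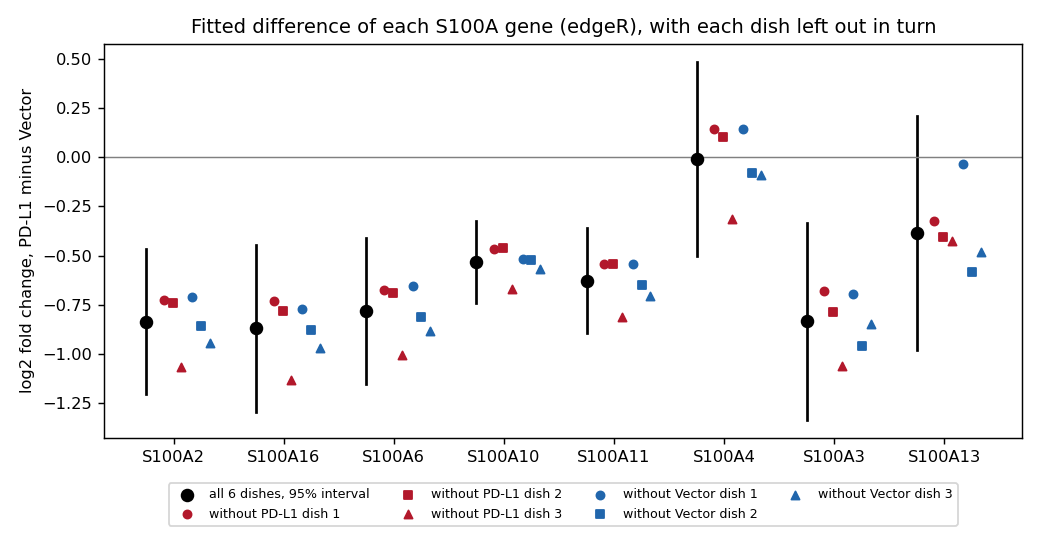
Log2 fold change (PD-L1 minus Vector) of each S100A gene in edgeR with its 95% interval (black), and the value with 1 dish left out (red for PD-L1 dishes, blue for Vector dishes). Leaving out PD-L1 dish 3 gives the lowest value for every gene except S100A13, and of the 8 genes only S100A4 has such left-out values on both sides of 0.

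The 6 called members were also the 6 whose groups did not overlap, a pattern found in 15.5% of all tested genes with PD-L1 lower. The number of lower members was 6 without PD-L1 dish 3 (13.8% of genes called lower), 4 without PD-L1 dish 1 (3.70%) and 2 without PD-L1 dish 2 (4.18%). It was 5 without Vector dish 1 (3.16%), 6 without Vector dish 2 (6.45%) and 5 without Vector dish 3 (5.27%). At an FDR of 0.01, S100A10 and S100A11 were left (3.21%). With DESeq2 5 were lower (7.48%), and among genes with a mean of at least 5 CPM, which leaves out S100A3 and S100A13, 5 of 6 were (7.55%).

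Summed over the 8 genes, the level was 929, 957 and 1399 CPM in PD-L1 dishes, against 2101, 1805 and 1632 CPM in Vector dishes. The sums averaged 1095 ± 263 CPM with PD-L1 and 1846 ± 237 CPM in Vector dishes, and the highest PD-L1 dish was under the lowest Vector dish. The log2 difference of the sum was -0.77, and -0.96 without PD-L1 dish 3. S100A2 alone made up 44.5 to 45.5% of the sum in PD-L1 dishes and 46.4 to 48.8% in Vector dishes. The share of S100A4 was 2.86 to 3.34% in PD-L1 dishes and 1.70 to 1.95% in Vector dishes.

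Members shared a dish pattern within groups. PD-L1 dish 3 was the highest PD-L1 dish for 8 of 8 members, and Vector dish 1 the highest Vector dish for 8 of 8. The share of all tested genes with these highest dishes was not computed, so the pattern is not shown to be particular to the members. Among called S100 binding partners, ANXA2, PLAUR and MYH9 had the same highest dishes, while ANXA1, AHNAK, PLAU and FGF1 did not. Every called gene among other EF-hand proteins had them except MYL12B. Of the called astroglial and glioma markers, VIM, NES, SOX2 and FABP7 had them, while GFAP did not. Relative to the Vector mean, S100A2 stood at -1.09, -1.05 and -0.47 on the log2 scale in PD-L1 dishes 1 to 3. The difference in PD-L1 dish 3 was therefore smaller than in dishes 1 and 2, as it was for S100A6 (-1.03, -0.98 and -0.42) and S100A16 (-1.20, -1.07 and -0.46). S100A10 moved less, at -0.66, -0.68 and -0.29. The root mean square distance between the log2 profiles of S100A2 and S100A6 over the 6 dishes was 0.04, and between S100A2 and S100A16 it was 0.05. S100A4 was farther from S100A2, at 0.58. Members of 1 dish share a library, so these likenesses are descriptions.

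**Figure D3:**
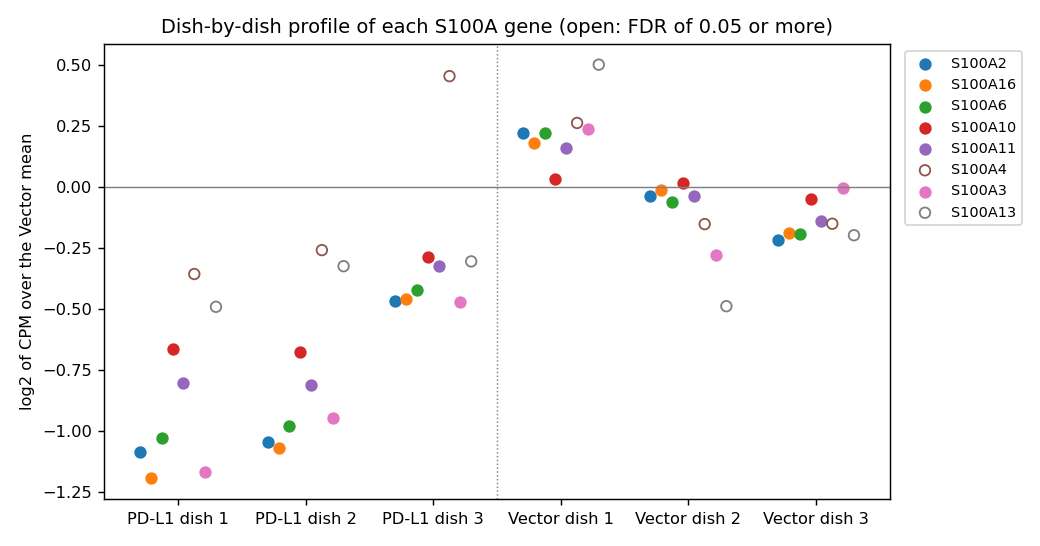
Log2 of the CPM of each S100A gene over its Vector mean, by dish, with PD-L1 dishes on the left (filled points: FDR under 0.05, open points: not). Called members lie between -1.20 and -0.29 in PD-L1 dishes, and PD-L1 dish 3 is the nearest to 0 for each of them, while S100A4 stands at 0.45 there.

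Ratios within a dish were examined for 8 pairs chosen by gene order or known binding, with an exact two-sided permutation test on the log2 ratio. With 3 dishes against 3 this exact permutation test cannot go below p = 0.1, so it cannot reach 0.05. The smallest Benjamini-Hochberg adjusted value over the 8 pairs was 0.267. The log2 ratio of S100A4 to its neighbour S100A6 was -2.32, -2.27 and -2.11 in PD-L1 dishes, against -2.95, -3.08 and -2.95 in Vector dishes. The groups did not overlap, with a difference of 0.76 (exact permutation p = 0.1, adjusted 0.267), and 0.70 without PD-L1 dish 3. S100A2 and S100A3 had a ratio that overlapped between groups, with a difference of -0.0081 (exact p = 1). S100A10 over S100A11 overlapped as well, with a difference of 0.10 (exact p = 0.3, adjusted 0.343) that ranged from 0.03 to 0.14 with 1 dish left out. S100A16 over S100A13 had a difference of -0.59 (exact p = 0.2, adjusted 0.267), ranging from -0.78 without PD-L1 dish 3 to -0.38 without Vector dish 2.

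For 4 pairs the ratio was to a binding partner. S100A10 and ANXA2, the subunits of the annexin A2 heterotetramer, were both lower. Their log2 ratio was -2.62, -2.72 and -2.67 in PD-L1 dishes, against -3.05, -2.91 and -2.84 in Vector dishes. The ratio was higher in all 3 PD-L1 dishes, by 0.27 (exact p = 0.1, adjusted 0.267), also without PD-L1 dish 3 (0.27). S100A11 over ANXA1 overlapped between groups, with a difference of 0.09 (exact p = 0.2, adjusted 0.267) that ranged from 0.03 to 0.14 with 1 dish left out. S100A6 over ANXA11 was lower in all 3 PD-L1 dishes than in any Vector dish, with a difference of -0.60 (exact p = 0.1, adjusted 0.267), and -0.73 without PD-L1 dish 3. S100A4 over MYH9, the heavy chain of nonmuscle myosin IIA, overlapped, with a difference of 0.43 (exact p = 0.2, adjusted 0.267), and 0.21 without PD-L1 dish 3.

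**Figure D4:**
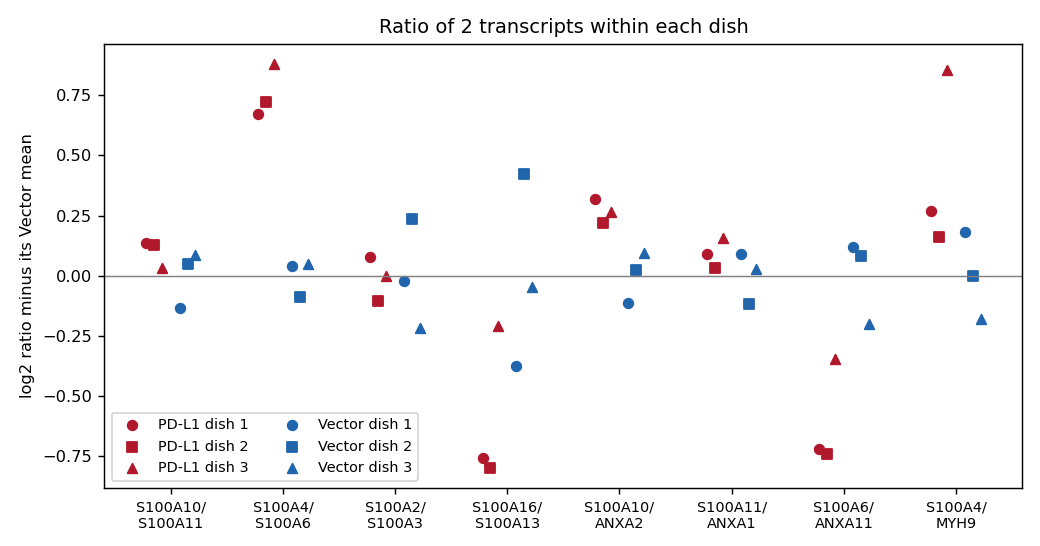
Log2 ratio of 2 transcripts within each dish, minus the Vector mean of that ratio, for the 8 pairs (red: PD-L1 dishes, left; blue: Vector dishes, right). S100A4/S100A6, S100A10/ANXA2 and S100A6/ANXA11 are the pairs whose groups stand apart.

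In the list of S100 binding partners and receptors, 7 of 23 tested genes were lower and 0 higher (7.20% and 1.55% of all genes; 8.75% in either direction). The list also holds genes of the plasminogen activator system, and its median log2 fold change was -0.15. ANXA2 averaged 1173 ± 192 CPM with PD-L1 and 2043 ± 204 CPM with Vector (adjusted p = 7.92e-04). ANXA1, an annexin with anti-inflammatory roles, averaged 148 ± 24.05 CPM with PD-L1 and 244 ± 23.2 CPM with Vector (adjusted p = 0.00102). AHNAK, a giant scaffold protein that binds the annexin A2 and S100A10 complex, was 1.58-fold lower, and MYH9 1.38-fold lower. PLAU, the urokinase-type plasminogen activator, was 2.19-fold lower and its receptor PLAUR 2.01-fold lower (adjusted p = 1.15e-06 and 8.68e-04 by edgeR). The growth factor FGF1 was 2.00-fold lower (adjusted p = 0.0456), at 1.08 ± 0.50 CPM with PD-L1 and 2.18 ± 0.17 CPM in Vector dishes. FGF1 was not in the fit restricted to a mean of at least 5 CPM, where 6 of 20 genes of the list were lower (7.55% of all genes). The tissue-type activator PLAT, at 92.9 CPM in each group, had an adjusted p of 0.999. ANXA11 and CACYBP had log2 fold changes of -0.20 and 0.12 (adjusted p = 0.183 and 0.419). AGER, the gene of RAGE, stood at 1.51 ± 0.24 CPM with PD-L1 and 1.07 ± 0.15 CPM with Vector (adjusted p = 0.266). The count of lower genes was 11, with 1 higher, without PD-L1 dish 3 (13.8% of all genes lower). It was 6 without any other single dish (3.16 to 6.45% of all genes lower).

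Other EF-hand calcium-binding proteins gave 11 of 31 tested genes lower and 0 higher (7.20% and 1.55% of all genes), with a median log2 fold change of -0.23. The alpha-actinins ACTN4 and ACTN1, which crosslink actin, were 1.72-fold and 1.57-fold lower. EHD2, which acts at caveolae, was 2.25-fold lower, at 64.6 ± 14.7 CPM with PD-L1 and 145 ± 17.4 CPM in Vector dishes. Its relative EHD4, in endocytic recycling, was 1.28-fold lower. The matrix protein SPARC was 1.81-fold lower, the calpain small subunit CAPNS1 1.36-fold lower, the secretory-pathway protein CALU 1.27-fold lower, and the actin-associated EFHD2 1.33-fold lower. The number of lower genes was 18, with 1 higher, without PD-L1 dish 3 (13.8% of all genes lower). It was 4 without PD-L1 dish 1 (3.70%) or without Vector dish 1 (3.16%), and 6 without PD-L1 dish 2 (4.18%).

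**Figure D5:**
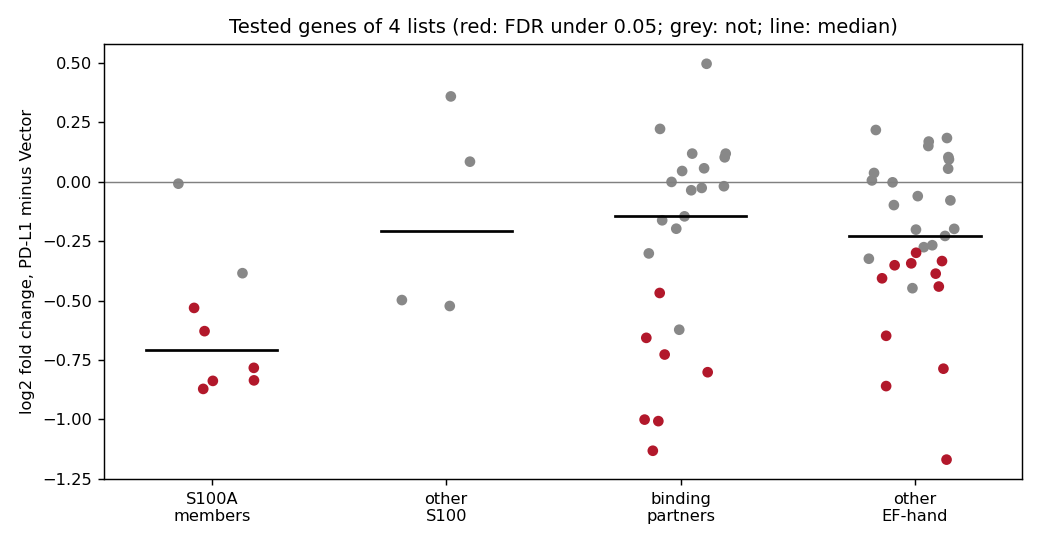
Log2 fold change (PD-L1 minus Vector) of each tested gene in 4 lists, with a line at the list median and red points for an FDR under 0.05. The medians are -0.71 for the 8 S100A genes, -0.21 for other S100 genes, -0.15 for binding partners and -0.23 for other EF-hand proteins, against 0.02 over all genes.

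Outside the 8 members the S100 family was barely detected. Of 13 other S100 genes 10 had a read, 4 were tested and 0 were called (8.75% of all genes called in either direction). Of these 4, 0 had an unadjusted p under 0.05, and 0 were called by DESeq2 (1443 of all 15818 genes called). With no low-count filter 1 of 10 was called lower (1564 of all 33317 genes). Without Vector dish 3, 1 of 5 was (5.27% of all genes). S100A1 averaged 1.05 ± 0.22 CPM with PD-L1 and 0.83 ± 0.26 CPM with Vector (adjusted p = 0.531). S100B, the S100 protein used as an astrocyte marker, averaged 0.60 ± 0.33 CPM with PD-L1 and 0.85 ± 0.62 CPM with Vector (adjusted p = 0.598). S100P and S100Z were at 0.52 and 0.50 CPM in PD-L1 dishes and at 0.48 and 0.70 CPM in Vector dishes, with adjusted p of 0.933 and 0.438. S100A14 had 9, 4 and 4 reads in PD-L1 dishes, against 16, 28 and 6 in Vector dishes. S100A5, which lies between S100A4 and S100A6, had 0, 5 and 12 reads in PD-L1 dishes, against 1, 3 and 2 in Vector dishes. S100G and S100A7 had 3 and 1 reads over the 6 dishes, and S100A7A, S100A7L2 and S100A12 had 0.

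S100A8 and S100A9, the subunits of calprotectin, were uneven between dishes of a group. S100A8 had 12, 2 and 0 reads in PD-L1 dishes, against 0, 9 and 0 in Vector dishes, and S100A9 had 9, 1 and 1 reads in PD-L1 dishes, against 3, 11 and 2 in Vector dishes. PD-L1 dish 1 and Vector dish 2 were thus the high dishes for both genes. The basal keratin KRT5 had the same high dishes, with 554, 52 and 86 reads in PD-L1 dishes, against 264, 750 and 179 in Vector dishes. S100A2 was lowest in PD-L1 dish 1 among PD-L1 dishes and was not highest in Vector dish 2. The source of the KRT5, S100A8 and S100A9 reads, and its part in the S100A2 level, was not tested. Of 58 non-S100 genes that lie between S100A10 and S100A1 in the RefSeq gene order and are in the count table, 26 had a read and 2 were tested, FLG and TCHH. Both are genes of the epidermal barrier and were not called (adjusted p = 0.0806 and 0.173 by edgeR), though both had an unadjusted p under 0.05. After correction for GC content and length 1 of the 2 was called lower (1479 of all 15818 genes lower).

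The genes with the most similar dish profile were named for the 4 members with the smallest FDR, by the root mean square distance of log2 CPM, relative to the Vector mean, over the 6 dishes. The 11201 candidates were named genes with a mean of at least 5 CPM, leaving out the 8 members themselves, so that S100A2, at 0.04 from S100A6, is not listed beside it. For S100A10 they were RIN3, ANXA5 and TK1, at distances of 0.029, 0.044 and 0.046, where the median over all candidates was 0.42. Being the smallest of 11201 distances, they lie under that median by selection, so the median gives the scale only. ANXA5, annexin A5, stood at 325 ± 41.4 CPM with PD-L1 and 464 ± 23.8 CPM in Vector dishes. For S100A11 they were the small heat-shock gene HSPB1, UBTD1 and BCAR3, at 0.032, 0.054 and 0.057. For S100A2 the transcription factor gene ETV5 was among the 3 nearest, at 0.044. For S100A6 they were the receptor gene LTBR, the syndecan gene SDC1 and ETV5, at 0.054, 0.056 and 0.056.

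Markers were used to check the labelled cell type and to look for other cells. Of 9 markers of astroglial and glioma cells all had reads. AQP4, ALDH1L1 and SLC1A2 were not tested, with group means of 0.18 to 0.50 CPM. S100B averaged 0.60 CPM with PD-L1 and 0.85 CPM with Vector. VIM stood at 241 ± 35.0 CPM with PD-L1 and 391 ± 20.4 CPM in Vector dishes, while the astrocyte marker GFAP was at 1.70 ± 0.22 CPM with PD-L1 and 3.18 ± 0.56 CPM in Vector dishes. The list summed to 300 to 397 CPM in PD-L1 dishes and 516 to 592 CPM in Vector dishes, most of it VIM. In this list 5 of 6 tested members were lower, VIM, NES, GFAP, SOX2 and FABP7 (7.20% of all genes). After correction for GC content and length, 3 of 6 were (1479 of all 15818 genes lower). Leaving out PD-L1 dish 1 (3.70% of all genes lower), PD-L1 dish 2 (4.18%) or Vector dish 1 (3.16%) gave 3 of 7. Leukocyte markers (7 of 7 with a read) summed to 3.39 to 3.76 CPM in PD-L1 dishes and 4.40 to 6.03 CPM in Vector dishes. Of 3 tested 1 was called lower (7.20% of all genes), AIF1, at 5 reads over the PD-L1 dishes and 44 over the Vector dishes. AIF1 was not called with DESeq2 (7.48% of all genes lower). Endothelial markers (5 of 5 with a read) summed to 2.53 to 3.16 CPM with PD-L1 and 3.52 to 4.15 CPM in Vector dishes. Of 2 tested 1 was called lower (7.20% of all genes), TEK. The other, CDH5, averaged 2.11 CPM with PD-L1 and 1.30 CPM with Vector (log2 fold change 0.71, adjusted p = 0.151). Markers of neurons and oligodendrocytes (6 of 6 with a read) summed to 17.6 to 19.8 CPM with PD-L1 and 20.8 to 24.2 CPM in Vector dishes. Of 4 tested 1 was called lower (7.20% of all genes), MBP. It was not called without PD-L1 dish 2 (4.18% of all genes lower) or without Vector dish 2 (6.45%). The part of these markers in the S100A results was not tested.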

How the data were processed

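RNA of 6 U251 dishes, 3 per line, was sequenced by the authors from 3 µg of total RNA per library, per the labels' protocols, using poly-T selection and a NEBNext Ultra kit, whose libraries carry no strand information. Per the submitters' processing notes, CASAVA 1.8, STAR 2.5.1b and HTSeq 0.6.0 were used with hg19. Which annotation, strand option or filters went with them is not given in the sources used here. Deposited by the authors were raw counts per Ensembl gene, and a table of normalized counts on a signal scale, which was found to be each raw count divided by 1 factor per dish.

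Raw counts were filtered with filterByExpr, scaled with TMM and tested in R 4.3.3 with edgeR 4.0.16 (robust glmQLFit, glmQLFTest, no covariates), with Benjamini-Hochberg adjustment over all genes. The standard error is the fold change over the root of F. CPM is given as mean ± SD of 3 dishes. Fits were tested on simulated data. Groups came from sample titles. Gene symbols came from a gene name table and GENCODE 29, which also gave lengths and overlaps.

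The members and lists were chosen with earlier results of these data known. Named genes were the 8 members, CD274, other S100 genes with a read, up to 8 called genes per list, the partners in the ratios, and the 3 nearest profiles for 4 members, some of which are not reported here. PLAT, CACYBP, AGER and the markers that were not called were named after their values were seen. Alternatives were RLE, upper-quartile and the authors' factors, library size only, DESeq2 1.42.0, limma-voom 3.58.1, no filter, a mean of at least 5 CPM, an FDR of 0.01, a GC and length offset (natural splines, 5 df, fitted for each dish), the replicate number as a block, and each dish left out. The offset without PD-L1 dish 3 was added after seeing the data. A planned comparison of protein sequences was not made. Intervals and floors cover counting error and the spread between dishes of 1 line only.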

Additional observations from a re-analysis of the deposited data

How the results depend on the processing

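Of the 8 S100A genes, 6 were lower with all 6 dishes, and 2 to 6 with 1 dish left out. The number was 2 at an FDR of 0.01, where S100A2, S100A3, S100A6 and S100A16 (log2 fold changes -0.84, -0.84, -0.78 and -0.87) no longer passed. S100A3 also lost its call with DESeq2 (-0.84). With 1 dish left out, the log2 fold change ranged from -1.07 to -0.71 for S100A2, -1.07 to -0.68 for S100A3, -1.01 to -0.66 for S100A6, -1.13 to -0.73 for S100A16 and -0.31 to 0.14 for S100A4. S100A4 turned positive with upper-quartile factors (0.025) and library size only (0.039). The S100A2/S100A3 ratio difference ranged from -0.12 to 0.11 with 1 dish left out, and was 0.04 and 0.11 when PD-L1 dish 2 or Vector dish 2 was left out. The cause was not tested. S100A10 and S100A11 passed in every fit with 1 dish left out (-0.67 to -0.46 and -0.81 to -0.54). S100A3 and S100A13 were not in the fit restricted to a mean of at least 5 CPM, where 5 of 6 members were lower. Over all genes, 1139 were lower and 245 higher, and with 1 dish left out 510 to 2241 were lower and 35 to 1271 higher. Higher genes numbered 379 with upper-quartile factors (1015 lower), 401 with library size only (932 lower) and 597 with the GC and length offset (1479 lower). Without PD-L1 dish 3 under the offset, 2159 were lower and 1180 higher. At an FDR of 0.01, 508 were lower and 22 higher. Same-numbered dishes did not deviate together (correlations over 11395 genes of -0.46, -0.17 and -0.46). Deviations were taken from the mean of each group of 3 dishes, which ties the correlations to one another. They therefore cannot show whether same-numbered dishes were handled together, which the labels do not state. Differently numbered dishes gave -0.14 to 0.41. The highest were PD-L1 dish 3 with Vector dish 1 (0.41) and PD-L1 dish 2 with Vector dish 3 (0.40). What lies behind these correlations was not tested. With the replicate number as a block, 6 S100A genes were lower, and 1209 genes were lower and 238 higher in all. With the block and the offset, 6 S100A genes were lower, and 1044 genes were lower and 244 higher in all. Depth limits S100A3, S100A13 and the other S100 genes, with 24 to 76 reads per dish for S100A3 and S100A13. For S100A13 the exon bases shared with other genes (33.5%) are a further limit.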
